A study of Rattus norvegicus with 8 samples.

Results

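The genes described are 10 classical targets of p53 and growth arrest genes, namely Cdkn1a, Gadd45a, Gadd45b, Btg2, Mdm2, Ccng1, Rrm2b, Bax, Bbc3 and Phlda3, followed in rat H9c2 cells grown aboard the International Space Station or on Earth, with or without nanoceria. They were taken by gene symbol from the probe annotation of the array, which named 9 of the 10 among 23188 probe sets, of which 15049 carried 1 symbol. Btg2, an antiproliferative gene, was not analysed here. Each of the 9 measured genes had 1 probe set. H9c2 is an established line of rat heart-derived myoblasts, labelled here as a muscle cell line, and nanoceria are cerium oxide nanoparticles with antioxidant activity. The study asked how nanoceria treatment modulates gene expression in different gravity regimes.

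All cultures were seeded at 35000 cells per cm2 in low-serum differentiation medium inside flight hardware. The treated cultures received nanoceria at 100 µg/ml coated with fetal bovine serum, and the untreated cultures received medium without it. The space cultures were launched in a pouch at 27 °C, entered an incubator at 37 °C on orbit on day 7 after seeding, and fixation followed on day 10. A later run on ground copied the temperatures logged in flight and was activated by hand, so that gravity, launch and culture run cannot be told apart in a comparison of space with ground. Each of 8 samples was measured on 1 Clariom S Pico array: space contributed 1 untreated and 2 treated samples, and ground contributed 2 untreated samples, numbered 1 and 3, and 3 treated samples. H9c2 stands in these data for 1 immortal line, and the measurement averages over a whole culture, in which fewer cells of a type and less RNA per cell cannot be told apart.

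The protein p53 is a transcription factor that is kept low by the ubiquitin ligase Mdm2 and is stabilised after DNA damage and other stress. It binds pairs of a short palindromic element in or near its target genes, which stop the cell cycle (Cdkn1a, Gadd45a), aid repair (Rrm2b), start apoptosis (Bax, Bbc3) or feed back on p53 itself (Mdm2, Ccng1). In muscle cells Cdkn1a has a further role, since it is induced as myoblasts leave the cell cycle to differentiate, also without p53.

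The promoter windows of RefSeq (build GRCr8, 250 bases before to 50 bases after the start of a gene) are shown in part because they tell apart the genes that carry the p53 consensus close to their start. The table held a window for 7 of the 10 genes. The consensus decamer (3 purines, C, 2 bases that are A or T, G, 3 pyrimidines, which reads the same on both strands) occurred without mismatch in 3 of the 7 windows, and in 7.98% of 33469 rat windows. A pair of abutting decamers with at most 1 mismatch in all occurred in 2 of the 7 windows, against 0.0717% of all windows. The matches are given in capitals in the stretches below, which run 5′ to 3′ on the strand of the gene. The Cdkn1a stretch is chr20:7150682-7150781 on the plus strand, the Ccng1 stretch chr10:25685027-25685126 on the minus strand and the Gadd45a stretch chr4:97486800-97486899 on the minus strand.
Cdkn1a: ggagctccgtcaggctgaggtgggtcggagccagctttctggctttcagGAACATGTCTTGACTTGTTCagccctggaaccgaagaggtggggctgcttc
Ccng1: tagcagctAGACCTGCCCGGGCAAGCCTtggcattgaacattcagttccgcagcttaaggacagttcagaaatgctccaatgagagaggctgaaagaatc
Gadd45a: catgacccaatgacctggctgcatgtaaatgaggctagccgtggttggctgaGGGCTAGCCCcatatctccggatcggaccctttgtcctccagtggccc
The pair began 201 bases before the start of Cdkn1a and 242 bases before the start of Ccng1, whereas Gadd45a carried a single decamer 48 bases before its start. The windows of Mdm2, Gadd45b, Btg2 and Phlda3 held no decamer, which says only that these letters are not in this window. Each match describes the sequence and is no evidence of binding in these cells.

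Levels are log2 intensities of the deposited values, so that a difference of 1 is a 2-fold difference, and they are compared only within a gene. The arrays had median intensities of 107 to 117. Of the 8 markers of the labelled muscle line, Myog lay at 6.25 to 9.89 and Des at 6.64 to 7.80. Acta1 lay at 7.52 to 10.81, Myod1 at 6.97 to 8.19 and Myh3 at 8.03 to 9.13. Vim lay at 13.62 to 14.00, Chrna1 at 4.41 to 6.90 and Myf5 at 4.01 to 4.75. Of 5 measured cardiomyocyte markers Tnnt2 lay at 9.18 to 11.43 and Nppa at 5.71 to 7.07. Tnni3 lay at 6.12 to 6.52, Myl7 at 6.22 to 6.58 and Ryr2 at 3.71 to 4.89. Among leukocyte markers Ptprc lay at 4.03 to 4.62, Cd68 at 7.11 to 7.74 and Cd14 at 7.72 to 9.18. Csf1r lay at 4.29 to 4.80, Adgre1 at 4.16 to 4.55 and Itgam at 3.90 to 4.65. The endothelial marker Pecam1 lay at 4.16 to 4.73, Cdh5 at 4.21 to 5.05 and Kdr at 5.85 to 6.24. Tek lay at 4.82 to 5.15 and Vwf at 4.70 to 5.85. These are levels of different probe sets, which cannot be set against each other. No detection measure was available, which matters most for Rrm2b, whose mean level exceeded that of only 42.4% of probe sets. The other 8 genes exceeded 76.9% to 98.5% of probe sets.

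Among the growth arrest genes, Cdkn1a, which encodes the cyclin-dependent kinase inhibitor p21, was measured at 11.77 and 12.91 in untreated ground cells, at 12.38, 12.03 and 12.41 in treated ground cells, at 11.55 in untreated space cells and at 12.00 and 11.75 in treated space cells. Its highest level lay in 1 untreated ground sample and its lowest in the untreated space sample, and the groups overlapped between regimes and between treatments. Gadd45a, a stress-induced gene that acts on the G2 checkpoint and on repair, stood at 10.72 and 12.69 in untreated ground cells, 11.18, 11.12 and 10.09 in treated ground cells, 11.71 in untreated space cells and 11.37 and 11.61 in treated space cells. The 2 untreated ground samples lay on either side of all the others but 1, so their mean of 11.70 ± 1.39 (SD, n = 2) describes neither. Gadd45b, a related gene that acts on stress kinase signalling, stood at 11.11 and 10.42 in untreated ground cells, 11.66, 11.47 and 11.60 in treated ground cells, 11.17 in untreated space cells and 11.09 and 11.23 in treated space cells. All 3 treated ground samples lay above the other 5.

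The feedback genes separated treated from untreated ground cells in the other direction. Mdm2 was measured at 10.07 and 10.42 in untreated ground cells, 8.92, 9.36 and 9.46 in treated ground cells, 9.97 in untreated space cells and 9.74 and 9.97 in treated space cells. Its 3 treated ground samples were the lowest of the 8, its 2 untreated ground samples the highest, and the space samples lay between. Ccng1, whose product cyclin G1 recruits a phosphatase to Mdm2, stood at 10.91 and 11.00 in untreated ground cells, 9.50, 10.15 and 10.28 in treated ground cells, 10.34 in untreated space cells and 10.46 and 10.22 in treated space cells. Both untreated ground samples again exceeded the other 6, but here the space samples overlapped the treated ground samples.

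Rrm2b, the p53-inducible small subunit of ribonucleotide reductase that supplies nucleotides for repair, stood at 6.04 and 7.81 in untreated ground cells, 5.86, 6.62 and 5.06 in treated ground cells, 6.61 in untreated space cells and 6.46 and 5.99 in treated space cells. Its replicates within a group were more scattered than those of 99.0% of probe sets (pooled within-group SD 0.85), and those of Gadd45a more than those of 98.8% (0.82).

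The apoptosis genes Bax and Bbc3, and Phlda3, had the smallest ranges of the 9 over all samples (0.98, 0.73 and 0.94). Within groups, however, Bax (pooled SD 0.35) was more scattered than Mdm2 (0.25), Gadd45b (0.26) and Ccng1 (0.31). Bax, which forms pores in the mitochondrial outer membrane, was measured at 11.23 and 11.08 in untreated ground cells, 11.85, 10.86 and 11.41 in treated ground cells, 10.96 in untreated space cells and 11.18 and 11.23 in treated space cells. The treated ground samples alone spanned the whole range of this gene. Bbc3, which encodes the BH3-only protein PUMA, stood at 8.47 and 8.57 in untreated ground cells, 9.07, 8.74 and 9.20 in treated ground cells, 8.63 in untreated space cells and 8.74 and 8.62 in treated space cells. Phlda3, which restrains the survival kinase Akt, stood at 10.47 and 10.50 in untreated ground cells, 10.73, 10.51 and 11.13 in treated ground cells, 10.18 in untreated space cells and 10.34 and 10.47 in treated space cells. For Bbc3 and Phlda3 the treated ground samples lay above the untreated ones, and for Phlda3 all 3 space samples lay below all 5 ground samples, the nearest pair by less than 0.01.

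**Figure D1:**
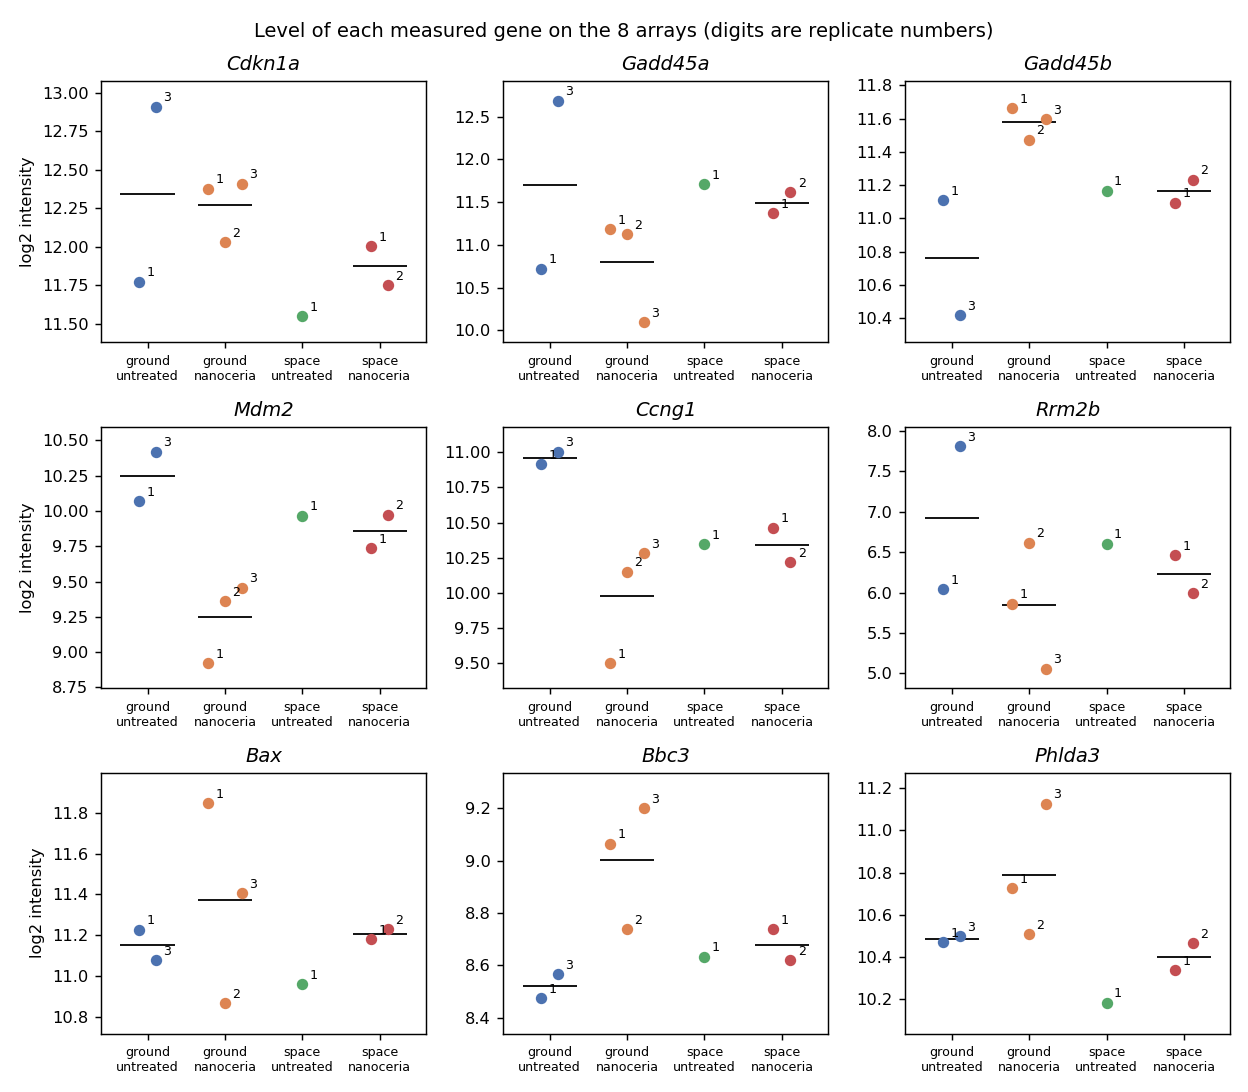
Log2 intensity (vertical axis, scaled for each gene) of the 9 measured genes in the 4 groups of regime and treatment (horizontal axis); points are samples with their replicate numbers and lines are group means. In Mdm2 and Ccng1 both untreated ground samples lie above all treated ground samples, in Gadd45b below them, and in Cdkn1a, Gadd45a and Rrm2b untreated ground replicate 3 stands above every other sample.

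One sample held the highest level of 5 of the 9 genes. Untreated ground replicate 3 was the highest of the 8 samples for Cdkn1a, Gadd45a, Mdm2, Ccng1 and Rrm2b, whereas it was the highest for 12.9% of all probe sets. Against the median of the other 7 samples it was higher by 1.77 for Rrm2b, 1.51 for Gadd45a, 0.91 for Cdkn1a, 0.72 for Ccng1 and 0.68 for Mdm2. Gadd45b showed the opposite, with its lowest level there (-0.81), and Bax, Bbc3 and Phlda3 lay within the range of the other samples (-0.15, -0.17 and 0.03). In the same sample 17 of 17 measured proliferation genes, among them the mitotic kinase Plk1 (7.21, against 10.89 to 11.56 elsewhere) and the proliferation marker Mki67 (6.96, against 9.05 to 10.67), had their lowest level. Their mean relative to all samples was -1.78 there and -0.02 to 0.52 in the other 7. Of all probe sets, 16.5% had their lowest level in this sample. The muscle markers were low there too: 5 of 8 had their lowest level in this sample, Myog among them (6.25, against 8.24 to 9.89). Rrm1 and Rrm2, which pair with each other or, for Rrm1, with Rrm2b in ribonucleotide reductase, are among the 17 proliferation genes. They stood at 8.34 and 6.64 in this sample. This sample was singled out after its values were seen, it is 1 culture, and the part of the proliferation and muscle genes in the levels of the p53 targets was not tested.

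**Figure D2:**
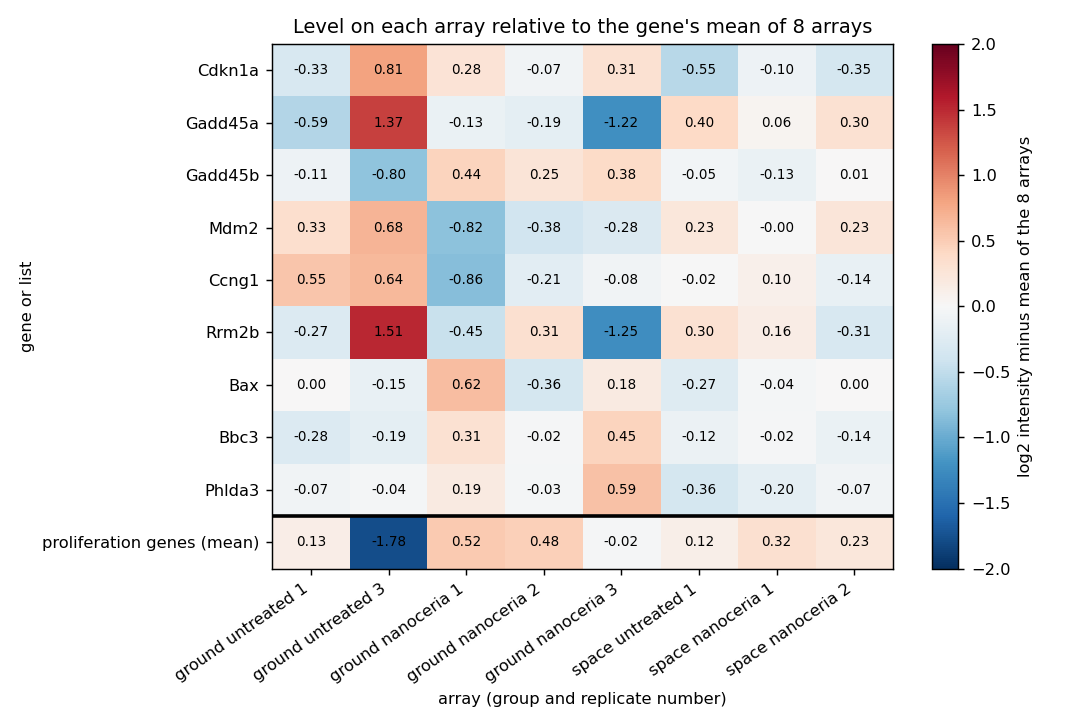
Log2 intensity minus the gene's mean of the 8 samples (colour and printed number) for the 9 genes (rows) in each sample (columns), with the mean of 17 proliferation genes in the bottom row. The column of untreated ground replicate 3 holds the highest values of 5 genes, the lowest of Gadd45b and a proliferation mean of -1.78.

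On ground, Mdm2 was 2.00-fold lower, Ccng1 1.97-fold lower and Gadd45b 1.76-fold higher in nanoceria-treated than in untreated cells, and none of the 3 passed the test after adjustment. The mean level of Mdm2 was 9.25 ± 0.28 (SD, n = 3) in treated and 10.24 ± 0.25 (SD, n = 2) in untreated ground cells, a log2 difference of -1.00 ± 0.22 (SE; adjusted p = 0.215, limma). Ccng1 differed by -0.98 ± 0.25 (adjusted p = 0.262), Gadd45b by 0.81 ± 0.22 (adjusted p = 0.280) and Bbc3 by 0.48 ± 0.18 (adjusted p = 0.412). These were the 4 of 9 genes with an unadjusted p below 0.05, which 11.0% of all probe sets had. Of the 9 genes 0 passed an adjusted p of 0.05 in this comparison, as did 0% of the 23188 probe sets in each of the 7 comparisons made. The groups did not overlap for 5 genes (Mdm2 and Ccng1 lower, Gadd45b, Bbc3 and Phlda3 higher), against 26.3% of all probe sets. The remaining differences were -1.08 ± 0.59 for Rrm2b, -0.91 ± 0.57 for Gadd45a, -0.07 ± 0.33 for Cdkn1a, 0.22 ± 0.28 for Bax and 0.30 ± 0.21 for Phlda3. The genes thus lay on both sides of 0, 4 higher and 5 lower, with a median of -0.07 against 0.04 over all probe sets.

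The treatment difference on ground depended on the untreated sample it was set against, for some genes more than for others. Without untreated ground replicate 3, Mdm2 differed by -0.82 instead of -1.00, Ccng1 by -0.94 instead of -0.98 and Bbc3 by 0.53 instead of 0.48. Each kept its direction whichever untreated ground sample was left out. Mdm2 stood at 10.07 in untreated ground replicate 1 and at 10.42 in replicate 3, so its difference was larger without replicate 1. Gadd45b differed by 0.47 without untreated ground replicate 3 and by 1.16 without untreated ground replicate 1. Cdkn1a turned from -0.64 without replicate 1 to 0.50 without replicate 3. Gadd45a went from -1.89 to 0.08 and Rrm2b from -1.97 to -0.19 by the same change. Bax changed sign when treated ground replicate 1 was left out (-0.02), and in all 6 of the 9 genes kept their direction whichever sample was left out. The number of probe sets past an adjusted p of 0.05 was 167 without untreated ground replicate 1, and the smallest adjusted p of the 9 genes in that fit was 0.0640, for Gadd45b. The proliferation genes moved with this choice as well. In treated ground cells 17 of 17 were higher, by a median of 1.07. That median was 2.07 without replicate 1, where the untreated side was replicate 3 alone, the sample in which all 17 were lowest. Without replicate 3 it was 0.25, with 14 of the 17 genes higher. Their summed intensity was 13518 and 3316 in the untreated and 13716 to 18915 in the treated ground samples. Of the 8 muscle markers 8 were higher in treated ground cells (7 with cyclic loess), by a median of 0.60. This median was 0.83 without replicate 1 and 0.37 without replicate 3 (7 of 8 higher in each). Their mean log2 level relative to all samples was -0.23 and -0.87 in the untreated and 0.21 to 0.59 in the treated ground samples. Their summed intensities were 14362 and 14959 in the untreated and 17575 to 19020 in the treated samples. These sums follow mostly Vim, by far the brightest of the 8. Whether these lists have a part in the differences of the p53 targets was not tested.

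**Figure D3:**
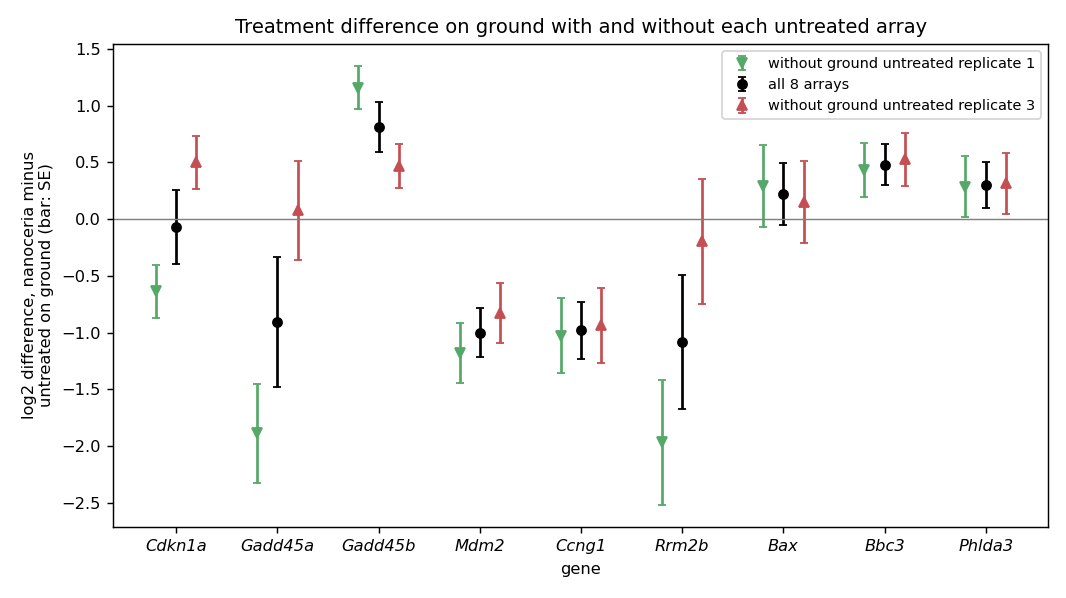
Log2 difference between nanoceria-treated and untreated ground cells (vertical axis; bars, SE of the limma fit) for each of the 9 genes with all 8 arrays and without each untreated ground sample. Mdm2, Ccng1 and Bbc3 keep their direction and shift by less than 1 between the 2 choices, while Cdkn1a, Gadd45a and Rrm2b shift by more than 1.

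Over both regimes, in a fit of regime and treatment together, the smallest p again belonged to Mdm2, Ccng1 and Gadd45b. Mdm2 differed by -0.68 ± 0.22 (adjusted p = 0.443, limma), Ccng1 by -0.63 ± 0.25 (adjusted p = 0.479) and Gadd45b by 0.52 ± 0.21 (adjusted p = 0.496). These 3 of 9 had an unadjusted p below 0.05, which 9.63% of all probe sets had, and 0 of the 9 separated treated from untreated samples without overlap, against 4.74% of probe sets. The remaining 6 ranged from -0.83 ± 0.46 (Rrm2b) to 0.33 ± 0.15 (Bbc3), and the median of the 9 was 0.07 against 0.03 over all probe sets. The median was -0.18 without untreated ground replicate 1 and 0.19 without replicate 3, and Gadd45b differed by 0.25 without replicate 3. The ground samples are part of this comparison and of the preceding one, so the 2 are not independent.

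In space, treated and untreated cells were closer than on ground for Mdm2, Ccng1, Gadd45b, Bbc3 and, by little, Phlda3 (0.22 against 0.30). For Cdkn1a (0.33 against -0.07) and Bax (0.25 against 0.22) they were not. Gadd45a (-0.22 against -0.91) and Rrm2b (-0.38 against -1.08) were closer in space only with untreated ground replicate 3 in the fit. Mdm2 was at 9.97 in the untreated and 9.85 ± 0.17 (SD, n = 2) in the treated samples, a difference of -0.11 ± 0.29. The smallest p among the 9 genes belonged to Phlda3 (0.22 ± 0.28), Cdkn1a (0.33 ± 0.44) and Bax (0.25 ± 0.37), each with an adjusted p of 1.00 (limma). Of the 9 genes 0 had an unadjusted p below 0.05, against 1.47% of probe sets. Ccng1 and Gadd45b both differed by less than 0.01. The untreated side of this comparison is 1 sample, whose variance was taken to be that of the remaining groups.

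The difference between the 2 treatment effects was tested as an interaction. It was 0.89 ± 0.37 for Mdm2, 0.98 ± 0.42 for Ccng1 and -0.82 ± 0.37 for Gadd45b, so that each was closer to 0 in space than on ground, and the adjusted p was 1.00 for all 3 (limma). Mdm2 was the 1 gene of 9 with an unadjusted p below 0.05, against 2.35% of probe sets. The median over the 9 genes was 0.40, against -0.01 over all probe sets. That median turned to -0.17 without untreated ground replicate 3 and was 0.97 without untreated ground replicate 1, and the interaction of Gadd45b was -0.47 and -1.16 under the same choices.

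Between space and ground, with treatment taken into account, 0 of the 9 genes passed the test after adjustment. Phlda3 was 1.28-fold lower in space (-0.36 ± 0.15, adjusted p = 0.521, limma) and was the 1 gene of 9 with an unadjusted p below 0.05, which 9.56% of probe sets had. It was also the 1 gene whose regimes did not overlap, against 5.11% of probe sets. Cdkn1a differed by -0.54 ± 0.25 (adjusted p = 0.549) and Mdm2 by 0.29 ± 0.22 (adjusted p = 0.692). The remaining 6 ranged from -0.18 ± 0.21 (Bax) to 0.45 ± 0.44 (Gadd45a), and the median of the 9 was -0.12 against -0.04 over all probe sets. Of the 9 genes 4 were higher and 5 lower, or 3 and 6 with the arrays set to equal medians. With single samples left out, Phlda3 stayed between -0.25 and -0.44, Cdkn1a between -0.34 and -0.68 and Mdm2 between 0.13 and 0.61. Gadd45b, Ccng1 and Rrm2b changed sign under 1 or more of these choices.

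Within treated cells the smallest p between regimes belonged to Mdm2, which was 1.53-fold higher in space (0.61 ± 0.22, adjusted p = 0.534, limma). It was the 1 gene of 9 with an unadjusted p below 0.05, against 8.41% of probe sets. Phlda3 differed by -0.39 ± 0.21 (adjusted p = 0.660) and Gadd45b by -0.42 ± 0.22 (adjusted p = 0.661). The groups of 2 and 3 samples did not overlap for 6 genes, with Mdm2 and Gadd45a higher and Cdkn1a, Gadd45b, Bbc3 and Phlda3 lower in space, against 31.2% of probe sets. For Bbc3 the nearest samples of the 2 groups were both at 8.74. Within untreated cells, where space had 1 sample, the differences with the smallest p were -0.61 ± 0.34 for Ccng1, -0.79 ± 0.44 for Cdkn1a and 0.40 ± 0.30 for Gadd45b, each with an adjusted p of 1.00. Of the 9 genes 0 had an unadjusted p below 0.05 there, against 3.14% of probe sets. The Cdkn1a difference was -1.36 without untreated ground replicate 1 and -0.22 without untreated ground replicate 3, and that of Gadd45b 0.75 and 0.06.

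**Figure D4:**
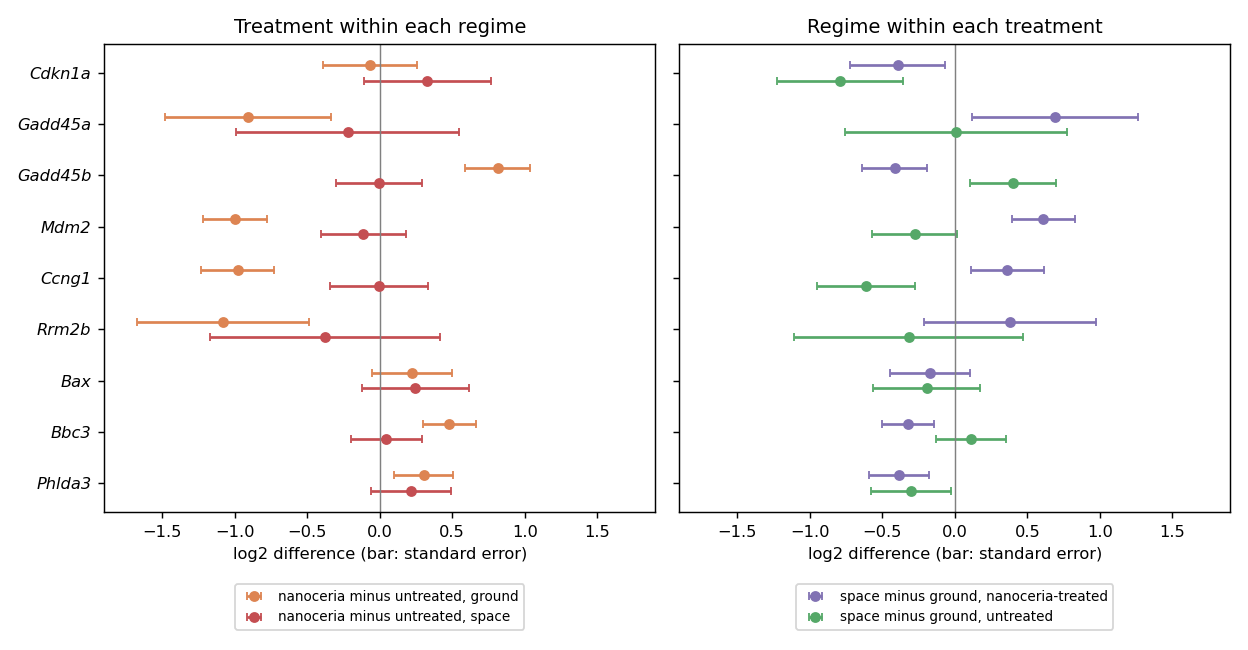
Log2 differences (horizontal axis; bars, SE of the limma fit) of the 9 genes (vertical axis) between treatments within each regime (left) and between regimes within each treatment (right). Mdm2 and Ccng1 lie near -1.00 and Gadd45b at 0.81 for treatment on ground, while their treatment differences in space lie between -0.11 and 0.00, and no gene passed the adjusted threshold in any of the 4 comparisons.

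The wider p53 network was followed through lists of regulators, further targets and other arrest genes. With all 8 arrays 0 genes of these lists passed an adjusted p of 0.05 in any comparison. Among 11 measured regulators of p53, Mdm4, the partner of Mdm2 in restraining p53, had the smallest p for treatment on ground. Its levels were 8.30 and 7.24 in untreated ground cells, 5.83, 6.30 and 6.98 in treated ground cells, 7.93 in untreated space cells and 7.30 and 7.57 in treated space cells. All 3 treated ground samples lay below the other 5, as for Mdm2, and the difference was -1.40 ± 0.40 (adjusted p = 0.306, limma), or -0.87 without untreated ground replicate 1 and -1.93 without replicate 3. The regulators as a list were divided on ground, with 5 of 11 higher (6 with equal array medians) and a median of -0.03, which was -0.12 without untreated ground replicate 1 and -0.22 (4 of 11 higher) without replicate 3. Between regimes 8 of 11 were higher in space (8 and 9 under the other scalings), with a median of 0.29 against -0.04 over all probe sets, and 1 of the 11 had an unadjusted p below 0.05, against 9.56% of probe sets. This was Cdkn2a (-0.48 ± 0.21, adjusted p = 0.513, limma), whose product ARF inhibits Mdm2.

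Of 8 further targets in apoptosis, 4 were higher and 4 lower in treated ground cells (5 and 3 with equal array medians), with a median of 0.13. That median was -0.05 without untreated ground replicate 1 and 0.36 without replicate 3. Tp53i11, a p53-inducible gene, stood at 6.19 and 6.09 in untreated ground cells and at 7.17, 7.25 and 6.87 in treated ground cells, a difference of 0.96 ± 0.22 (adjusted p = 0.230, limma). Untreated space cells were at 6.69 and treated space cells at 7.20 and 6.61, within the range spanned by the ground samples. Fas, the death receptor, differed by -0.64 ± 0.24 (adjusted p = 0.412), but by only -0.23 without untreated ground replicate 3, in which it was highest (9.37, against 8.22 to 8.54). Between regimes Pidd1, which encodes a death-domain protein, was lower in all 3 space samples (6.48, 7.04 and 6.91) than in all 5 ground samples (7.34 to 7.90), by -0.80 ± 0.20 (adjusted p = 0.378). The regimes did not overlap for 5.11% of all probe sets. Of the 8 genes 1 had an unadjusted p below 0.05 between regimes, against 9.56% of probe sets.

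Of 17 further targets in arrest, repair and metabolism, 9 were higher and 8 lower in treated ground cells, with a median of 0.16 against 0.04 over all probe sets. This turned with the untreated sample, to 7 higher and 10 lower with a median of -0.22 without untreated ground replicate 1, and to 14 higher and 3 lower with a median of 0.30 without replicate 3. The smallest p belonged to Tp53inp1, a p53-induced regulator of p53 activity, with a difference of -0.63 ± 0.21 (adjusted p = 0.361, limma), followed by Rprm, a G2 arrest gene (0.46 ± 0.16, adjusted p = 0.368), and Gtse1, which opposes p53 in G2 (0.73 ± 0.26, adjusted p = 0.381). Between regimes 5 of the 17 were higher and 12 lower in space, with a median of -0.13, which was -0.20 without untreated ground replicate 1 and -0.04 (7 higher, 10 lower) without replicate 3. Polk, a translesion DNA polymerase, was higher in all 3 space samples (7.10, 6.80 and 6.60) than in all 5 ground samples (6.11 to 6.52), by 0.53 ± 0.15 (adjusted p = 0.398). Such a lack of overlap held for 5.11% of all probe sets. Of the 17 genes 2 had an unadjusted p below 0.05 between regimes, against 9.56% of probe sets. Gdf15, a secreted stress cytokine, differed by -0.41 ± 0.17 (adjusted p = 0.510).

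Growth arrest genes outside the p53 targets were divided too, with 5 of 13 higher in treated ground cells and a median of -0.13. Without untreated ground replicate 1, 6 of 13 were higher with a median of -0.0038, and without replicate 3 the median was -0.09. Cdkn2d, an inhibitor of the cyclin D kinases, was at 7.66 and 7.65 in untreated and at 8.70, 8.08 and 8.18 in treated ground cells, a difference of 0.66 ± 0.21 (adjusted p = 0.347, limma). Gadd45g, the third member of the Gadd45 family, differed by 0.80 ± 0.26 (adjusted p = 0.360), or 0.48 without untreated ground replicate 1 and 1.12 without replicate 3. The 3 Gadd45 genes therefore did not lie on one side of 0 on ground, with Gadd45b and Gadd45g above it and Gadd45a below it as deposited, with equal array medians and with cyclic loess, but Gadd45a at 0.08 without untreated ground replicate 3. In the BCL2 family, counted here without Bax and Bbc3, 1 of 11 genes was higher in space and 10 lower, in all 3 scalings (2 and 9 without untreated ground replicate 3), with a median of -0.20 against -0.04 over all probe sets. The 1 of 11 with an unadjusted p below 0.05, which 9.56% of probe sets had, was Bcl2l11, which encodes the BH3-only protein BIM (-0.48 ± 0.21, adjusted p = 0.521). Within treated cells 1 of the 11 was again higher in space and 10 lower. Within untreated cells, where space had 1 sample, 4 were higher and 7 lower, with a median of -0.09.

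The genes most like Cdkn1a and Mdm2 over the 8 samples were found by the root-mean-square difference of log2 levels centred on each gene's own mean, among 8184 named genes of above-median level. Cdkn1a, whose own levels deviated from their mean by a root-mean-square of 0.41, was closest to Gas6 (0.115), Pnkd (0.115) and Gga2 (0.119). Each of these had its highest level in untreated ground replicate 3, such as Gas6 at 10.65 against 9.20 to 10.08 elsewhere. Mdm2, with a root-mean-square of 0.44, was closest to Noc3l (0.104), Nek7 (0.115) and Amd1 (0.122). Nek7 repeated the order of the groups seen in Mdm2, with 10.18 and 10.49 in untreated ground cells, 9.06, 9.63 and 9.39 in treated ground cells, 10.26 in untreated space cells and 9.97 and 10.02 in treated space cells, except that its untreated space sample lay between the untreated ground samples. The genes were chosen for this likeness, so a shared highest sample or order of groups follows largely from the choice. These likenesses are descriptions over 8 samples.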

How the data were processed

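Total RNA of 8 H9c2 cultures was measured on rat Clariom S Pico arrays. The values deposited by the authors are linear intensities of probe sets, summarised by RMA according to the submitters' processing notes. Software and settings of that step are not given in the sources used here. Log2 was taken without a pseudocount. The array's probe annotation named the genes. Columns of other samples numbered 0.

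Differences were fitted to all 23188 probe sets with limma 3.58.1 (R 4.3.3, empirical Bayes variance, two-sided, Benjamini-Hochberg at 0.05): regime plus treatment (5 residual degrees of freedom) for the comparisons over both regimes or treatments, and 1 mean per group (4 residual degrees of freedom) for the others. A p-value reflects only the variation among these samples, which may be technical. The script was tested on simulated data. Members and lists were chosen with earlier results of these data known. Named with their tests were members with an unadjusted p below 0.05, or the 3 with the smallest p, and up to 3 genes of each further list. Other scalings, filters, a pseudocount of 16, variance settings, a replicate block and leaving out each array were tried.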

Additional observations from a re-analysis of the deposited data

How the results depend on the processing

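For the 22 differences of the 9 measured members (Cdkn1a to Phlda3) that were chosen by smallest p, all 327 values under other settings kept their direction and stayed short of an adjusted p of 0.05 (limma). These settings were equal array medians, cyclic loess, the brighter 66.7% of probe sets, a pseudocount of 16, a variance trend, array weights, a replicate block, the mean of the within-stratum contrasts and leaving out each array. Many of the 327 could not change direction. A variance trend or a probe set filter leaves a difference as it is, as does leaving out an array outside a contrast of group means. With each array left out in turn, 4 of all 9 genes kept their direction for the interaction. For treatment in space 5 did, and for treatment over both regimes 8 did. Probe sets past the threshold for space against ground numbered 1 with a variance trend and 4 with array weights, and 0 to 1 with an array left out (1 without untreated ground replicate 3 and 1 without treated ground replicate 2). With an array left out they numbered 0 to 167 for treatment on ground and 0 to 6 for space against ground in untreated cells, both highest without untreated ground replicate 1. The median over the 9 genes for treatment on ground then ranged from -0.64 to 0.15, and that of the interaction from -0.17 to 0.97. The cause was not tested. Deviations of same-numbered samples from their group means correlated with r of -0.35 to -0.01 over 5 pairs. In groups of 2 or 3 samples such deviations are tied to each other, so this cannot decide whether the numbers pair the samples. With the number as a block, 1284 instead of 2217 probe sets had an unadjusted p below 0.05 for space against ground. Within treated cells 1059 instead of 1950 had it, and 0 passed after adjustment. Other settings moved such unadjusted counts too: for space against ground to 1231 and 1310 without either treated space sample, and within treated cells to 1023 and 990 without them and 3065 with array weights. For treatment over both regimes 2233 became 1462 with the mean of the within-stratum contrasts. For treatment in space 341 became 166 (brighter probe sets), 696 (array weights) and 214 (block), for untreated cells 728 became 471 (brighter probe sets), 408 (block), 1811 and 1442 (without untreated ground replicate 1 or 3), and for the interaction 545 became 362, 340, 1282 and 1330 in the same order and 343 without treated space replicate 1. No gene had several probe sets, so using the dimmest gave no value, and without the untreated space sample 3 comparisons had none. With 1 to 3 samples a group and no detection measure, the number of arrays limits the precision.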
